A study of Mus musculus with 6 samples.

Results

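The genes described here encode the machinery that moves newly made secretory proteins into the endoplasmic reticulum (ER) and on to the Golgi apparatus. They were the rows of the 6 deposited reports whose gene symbol began with Sec11, Sec13, Sec16, Sec22, Sec23, Sec24, Sec31, Sec61, Sec62 or Sec63, with Copa, Copb, Cope, Copg or Copz, or with Tmed and a digit, together with Ssr1 to Ssr4, Kdelr1 to Kdelr3 and Arfgap1 to Arfgap3. That rule found 45 of 26458 gene symbols, and 43 of the 45 passed the filter on low counts. The RNA was that of Thy1+HE- cardiac cells of C57BL/6 mice, sorted on day 7 after 1 of 2 operations. The sham group (3 libraries) had the control operation, and the TAC group (3 libraries) had transaortic constriction, a narrowing of the aorta that raises the pressure load on the left ventricle. Thy1 is a surface protein of many cardiac fibroblasts, the labels use HE without spelling it out, and mouse age and any pooling of animals were not given in the sources used here. The p-values therefore measure the spread between these libraries, which may be technical.

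A protein destined for secretion enters the ER through the Sec61 channel, with the translocon-associated protein (TRAP) complex beside it, and loses its signal peptide to the signal peptidase. COPII-coated vesicles then carry it forward from ER exit sites, guided by cargo receptors of the p24 family, while COPI-coated vesicles bring escaped ER proteins and recycling receptors back. Activated cardiac fibroblasts secrete large amounts of collagen and other matrix, and procollagen is among the bulkiest cargo this route handles.

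Sham libraries held 1909337 to 2056097 reads on genes and TAC libraries 3351479 to 4207312, which makes low values less precise in sham. A count of 3 corresponds to between 0.713 and 1.57 CPM (the count scaled to a common library size) in a single library. The share of matched reads that fell on gene rows was 25.4% to 34.1% in sham and 38.7% to 43.2% in TAC, and its part in the results was not tested. The 8 fibroblast markers checked summed to between 17170 and 22150 CPM in sham and between 21310 and 24540 CPM in TAC. The 2 called higher were Col1a1 (mean of 1955 CPM in sham and 5959 in TAC) and Col1a2 (2690 and 7327). The 4 called lower were Dcn (11090 and 6982), Pdgfra (948.1 and 546.4), Tcf21 (235.3 and 119.2) and Ddr2 (203.4 and 118.4). Lum and Thy1 were not called. Markers of macrophages and other leukocytes summed to between 20.7 and 63.6 CPM in sham and to 73.3, 76.4 and 229.4 CPM in TAC replicates 1, 2 and 3. Of these 10 markers 3 were called higher (C1qb, Lyz2, listed as Lyzs, and Mrc1), and the pan-leukocyte gene Ptprc (CD45) was at 0 counts in each sham library and at 7, 9 and 17 counts in TAC. Plasma cells are the textbook professional secretors, and 4 of the 9 plasma cell and lymphocyte markers had 0 counts in all 6 libraries, while Jchain (listed as Igj) had 1 count in TAC replicate 2 and Cd79a, a B cell gene, 1 and 11 counts in TAC replicates 1 and 3 and 0 in the others. The only marker of that list with enough counts to test, Sdc1, was called higher, from 14.0, 14.5 and 19.8 CPM in sham to 29.1, 39.8 and 35.8 CPM in TAC. Pericyte and smooth muscle markers summed to 2563 to 4543 CPM in sham and 1072 to 2286 CPM in TAC (3 of 9 called lower), Schwann cell markers to 67.9 to 85.3 and 29.5 to 35.4 CPM (4 of 4 tested called lower), and epicardial and mesothelial markers to 237.8 to 467.3 and 84.1 to 167.5 CPM (3 of 7 called lower). Endothelial markers summed to 213.8 to 279.3 CPM in sham and 165.5 to 184.9 CPM in TAC, with Tek called lower and Erg called higher among 6 tested. Tek made up much of these sums, at 189.3, 196.8 and 197.9 CPM in sham and 97.55, 102.4 and 85.4 CPM in TAC. Of the 6 tested, 4 (Erg, Cdh5, Pecam1 and Flt1) had a log2 fold change above 0. Cardiomyocyte markers overlapped between the groups, at 212.3 to 536.7 and 303.9 to 611.9 CPM (1 of 9 called higher and 1 lower). In bulk RNA, fewer cells of a type and less RNA per cell cannot be told apart, and the part of other cell types in the values below was not tested.

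After TAC, 14 of the 43 tested genes were called higher and 1, Tmed5, was called lower. Here a call means that edgeR's quasi-likelihood test gave a Benjamini-Hochberg adjusted p below 0.05, over all 12612 genes tested. The 15 called members were 34.9% of those tested, against 18.7% of all genes. The 14 called higher were 32.6%, against 8.28% of all genes, and the called fall stood against 10.4% of all genes called lower. The median log2 fold change of the 43 genes was 0.416, against 0.011 over all genes. Of the 43 values 37 were above 0, against 6409 of the 12612 over all genes. The changes were small, from -0.62 to 0.88 on the log2 scale, and the highest corresponds to 1.84 times the sham level. In 28 of the 43 genes (65.1%) every TAC library had a higher CPM than every sham library, against 17.7% of all genes tested. No member had every TAC library below every sham library, against 18.5% of all genes.

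**Figure D1:**
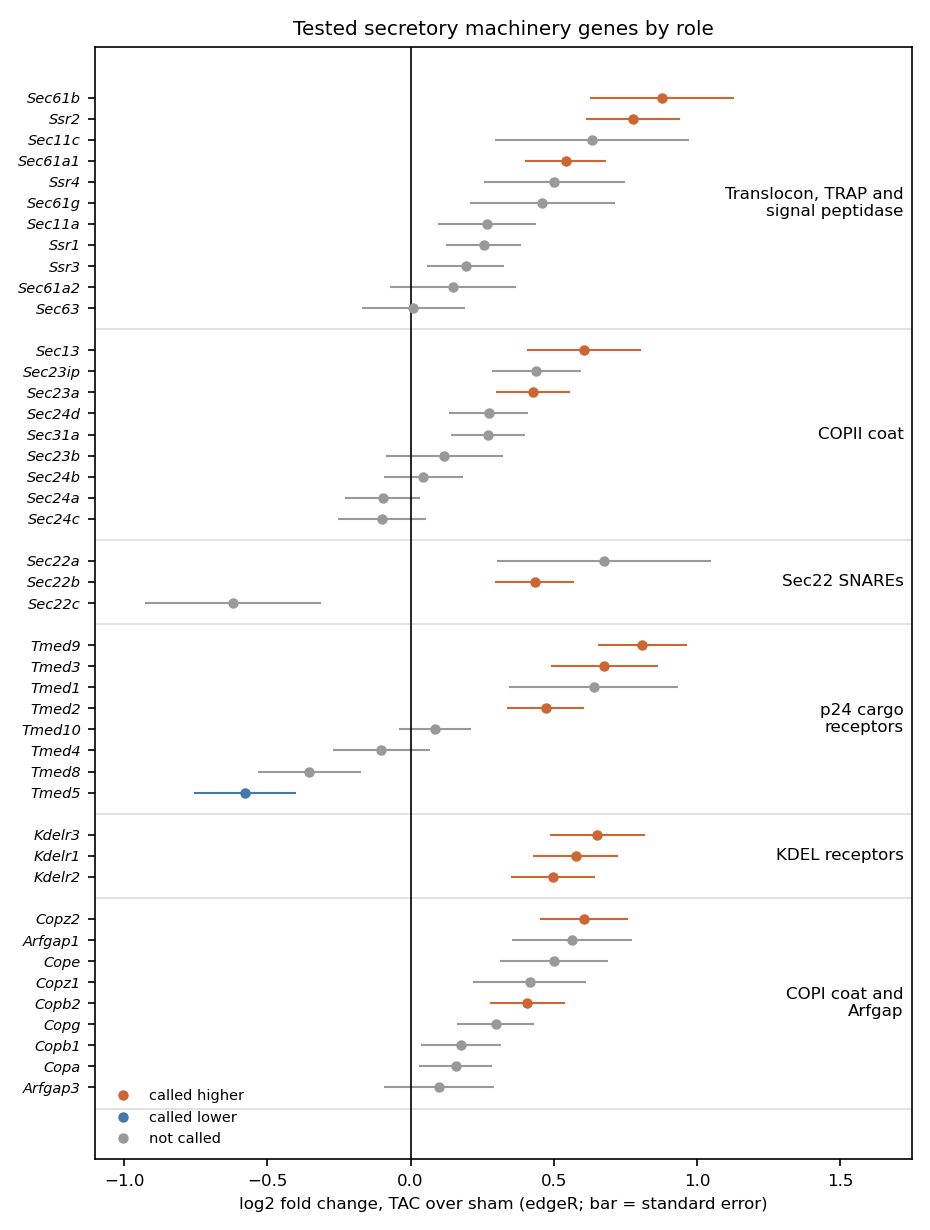
Log2 fold change of TAC over sham for each tested member, grouped by role, as fitted by edgeR; bars are standard errors. The 14 genes called higher (orange) lie between 0.41 and 0.88, the only called fall is Tmed5 (blue) at -0.58, and grey points were not called.

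Most of these calls were lost in at least 1 fit that left out a library, and 2 of the 15 kept theirs in every such fit. Without sham replicate 1 the number called higher was 7, without sham replicate 2 it was 8, without sham replicate 3 it was 3 (Tmed9, Ssr2 and Kdelr2), and without TAC replicate 2 it was 9. Over all genes, the share called higher in the same fits was 7.13%, 4.21%, 5.03% and 6.19%. Tmed9 and Ssr2 kept their call in all 18 alternative fits, Kdelr1 and Sec61a1 in 17, Kdelr3 and Copz2 in 16, Tmed3 and Tmed2 in 15, Sec61b in 14 and Kdelr2 and Sec23a in 13. Tmed5 and Sec22b kept it in 11, Copb2 in 10 and Sec13 in 9. The median log2 fold change of the members stayed between 0.29, without sham replicate 3, and 0.471, with no low-count filter.

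Fold changes in these libraries also fell with gene length. Over the 43 members the log2 fold change had a Pearson r of -0.592 and a Spearman rho of -0.624 with the log2 row length, and over all 12612 genes an r of -0.208 and a rho of -0.293. These are correlations across genes measured in the same libraries, and genes are not independent replicates. The 13 members under 1500 bases had a median log2 fold change of 0.633, against 0.27 in all genes of that length. The 16 members of 3000 bases and over had a median of 0.223, against -0.131 in all such genes. With the length trend of each library removed, 13 members were called higher and none lower, the median was 0.359, and 11 of the 15 called members kept their call. Copz2, Sec61b, Sec13 and Tmed5 lost it, and Copg and Sec23ip were then called higher.

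**Figure D2:**
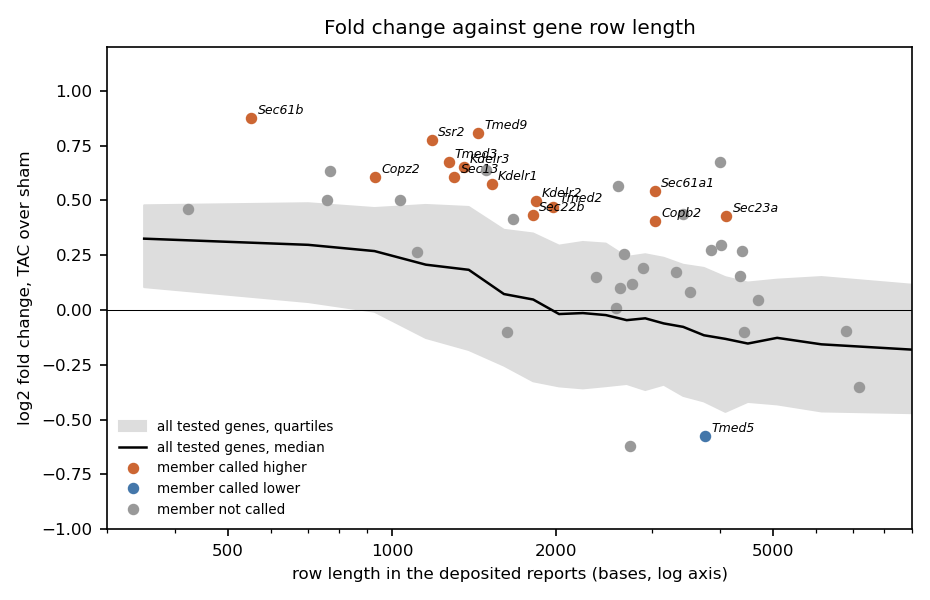
Log2 fold change of each tested member against the length of its row in the deposited reports (bases, log axis). The black line and grey band give the median and the quartiles of all tested genes in 20 bins of length, and the members called higher (orange) lie above the band.

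The first step of the pathway is entry into the ER. Of 11 genes for the translocon, TRAP and the signal peptidase, 3 were called higher, none lower, and all 11 log2 fold changes were above 0 (median 0.46). The 27.3% called stood against 18.7% of all genes called in either direction and 8.28% called higher. Sec61a1, which encodes the pore-forming subunit of the Sec61 channel (chromosome 6, 88503607 to 88518800 in GRCm38), had 115.2, 125.4 and 102.7 CPM in the sham libraries and 158.0, 155.3 and 186.1 CPM in the TAC libraries, each triplet here and below in the order of replicates 1 to 3. The groups did not overlap, and the fitted log2 change was 0.54 ± 0.14 (SE; edgeR adjusted p of 0.0129). In GENCODE M21, 549 bases of its exons lie opposite an exon of Gm44170, and since the library kit does not mark strand, reads of such partners cannot be told apart. Sec61b, a small subunit of the channel (chromosome 4, 47474661 to 47483233), had only 20, 31 and 18 counts in sham and 65, 86 and 81 in TAC. It went from 11.7 ± 3.84 to 21.4 ± 2.53 CPM (SD, n = 3), the highest log2 fold change of all members at 0.88 ± 0.25 (SE), with an edgeR adjusted p of 0.0221. Sec61g, the other small subunit, did not pass (0.46 ± 0.25, adjusted p of 0.221), and its row of 423 bases is the shortest of all members.

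Ssr2, the beta subunit of TRAP (chromosome 3, 88579608 to 88588420), was at 30.5, 36.8 and 31.3 CPM in sham and at 51.5, 55.9 and 61.3 CPM in TAC. Every TAC library stood above every sham library. Its log2 fold change was 0.78 ± 0.16 (SE) with an edgeR adjusted p of 0.00358. The other TRAP genes did not pass: Ssr1 had a log2 fold change of 0.25 ± 0.13, Ssr3 of 0.19 ± 0.14 and Ssr4 of 0.50 ± 0.25. Per length, Ssr3 was the highest of all members, at 252.1 ± 14.0 RPKM in sham and 286.9 ± 14.98 RPKM in TAC (SD, n = 3). The subunits of this complex had unlike levels, with Ssr1 at 68.3 ± 4.42, Ssr2 at 28.0 ± 3.42 and Ssr4 at 18.1 ± 2.76 RPKM in sham. Of the catalytic signal peptidase subunits, Sec11a was at 34.7 ± 4.70 RPKM in sham and 41.6 ± 3.98 in TAC, and Sec11c at 6.87 ± 2.26 and 10.6 ± 1.02 RPKM, and neither passed. Sec61a2, the second alpha subunit, and Sec63, a cofactor of the channel with an ER-lumenal J domain, had log2 fold changes of 0.15 ± 0.22 and 0.01 ± 0.18. Sec61a2 shares 909 exon bases with Nudt5 on the opposite strand, so its counts are uncertain.

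**Figure D3:**
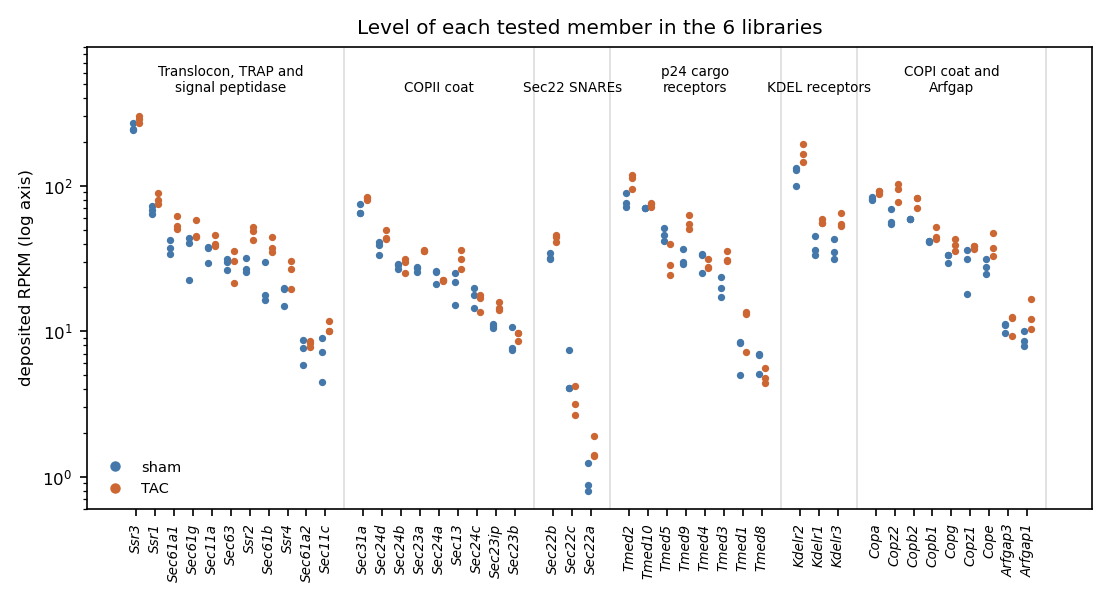
Deposited RPKM (reads per kilobase of row length, scaled to library size, log axis) of each tested member in the 3 sham (blue) and 3 TAC (orange) libraries, ordered by sham level within each role. Ssr3 is the highest, at 252.1 RPKM in sham, and Sec22a the lowest tested, at 0.97 RPKM.

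COPII vesicles carry cargo out of the ER. Of 10 COPII coat genes 9 were tested, 2 were called higher and none lower, with a median log2 fold change of 0.27. The 22.2% called stood against 18.7% of all genes called in either direction and 8.28% called higher. Sec23a, which belongs to the inner coat and activates the GTPase of Sar1 (chromosome 12, 58958384 to 59012017), was at 113.2, 110.9 and 104.2 CPM in sham and at 151.2, 143.7 and 146.4 CPM in TAC. The groups did not overlap and the libraries of a group lay close together. Its log2 fold change was 0.43 ± 0.13 (SE), with an edgeR adjusted p of 0.0298. Sec13, a part of the outer cage that also sits in the nuclear pore (chromosome 6, 113728052 to 113740681), was at 20.03, 32.1 and 28.3 CPM in sham and at 36.2, 39.6 and 46.6 CPM in TAC. Its log2 fold change was 0.61 ± 0.20 with an edgeR adjusted p of 0.0429, close to the threshold. Its partner in the cage, Sec31a, had the highest level of the coat, at 68.2 ± 5.45 RPKM in sham and 82.0 ± 1.95 in TAC (SD, n = 3), and was not called (0.27 ± 0.13, adjusted p of 0.159). In single libraries Sec31a was at 332.0, 279.2 and 280.8 CPM in sham and at 360.8, 351.6 and 363.6 CPM in TAC, without overlap.

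The 4 Sec24 genes, whose products recognise cargo in the inner coat, were not called. Sec24d had a log2 fold change of 0.27 ± 0.14, Sec24b of 0.05 ± 0.14, Sec24a of -0.10 ± 0.13 and Sec24c of -0.10 ± 0.15 (SE). Sec24d was also the highest of them in sham, at 37.8 ± 4.14 RPKM, before Sec24b at 28.1 ± 1.24, Sec24a at 24.2 ± 2.65 and Sec24c at 17.4 ± 2.67 RPKM. In that order no library of a gene overlapped with those of the next. Sec23ip, which binds Sec23 at ER exit sites, was at 38.1, 37.3 and 35.7 CPM in sham and at 49.1, 52.4 and 49.0 CPM in TAC and missed the threshold (edgeR adjusted p of 0.0601). Sec31b had at most 6 counts in any library and was not tested.

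Fusion with the next compartment needs SNARE proteins, and Sec22b is the one that travels on ER-derived vesicles. It was at 57.6, 61.1 and 57.5 CPM in sham and at 77.3, 81.0 and 79.7 CPM in TAC (chromosome 3, 97901227 to 97922318). The log2 fold change was 0.43 ± 0.14 (SE), with an edgeR adjusted p of 0.0377. Sec22a and Sec22c were low and were not called. Sec22a had 6 to 10 counts in sham and 19 to 25 in TAC (0.67 ± 0.37, adjusted p of 0.227). Sec22c was at 20.5, 10.9 and 10.9 CPM in sham and at 8.90, 11.2 and 7.22 CPM in TAC, a log2 fold change of -0.62 ± 0.31 (adjusted p of 0.173), and its sham mean rests on replicate 1.

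The p24 proteins are cargo receptors that cycle between the ER and the Golgi as mixed complexes of several subfamilies. They were the role group with calls in both directions, 3 higher and 1 lower of 8 tested, with a median log2 fold change of 0.278. The 50% called stood against 18.7% of all genes called in either direction. Over all genes, 8.28% were called higher and 10.4% lower. Tmed9, an alpha subfamily member (chromosome 13, 55593135 to 55597697), was at 44.1, 51.8 and 41.2 CPM in sham and at 74.5, 75.4 and 90.2 CPM in TAC. Its log2 fold change of 0.81 ± 0.16 (SE) had the smallest adjusted p of all members, 0.00179 in edgeR. Tmed3, of the gamma subfamily (chromosome 9, 89699203 to 89705043), was at 30.5, 21.2 and 24.8 CPM in sham and at 40.2, 37.5 and 45.1 CPM in TAC, a log2 change of 0.68 ± 0.19 and an edgeR adjusted p of 0.0187. Tmed2, the beta member (chromosome 5, 124540791 to 124550503), was at 144.7, 170.9 and 149.3 CPM in sham and at 194.5, 217.9 and 232.4 CPM in TAC. It had the highest level of the family per length, 79.0 ± 8.64 RPKM in sham and 109.2 ± 12.1 in TAC (SD, n = 3), and a fitted log2 change of 0.47 ± 0.14 (edgeR adjusted p of 0.0222). In none of these 3 genes did the groups overlap.

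Tmed5, another gamma member (chromosome 5, 108121556 to 108132620), went the other way. It was at 195.8, 153.8 and 170.6 CPM in sham and at 154.6, 103.4 and 91.4 CPM in TAC, so TAC replicate 1 overlapped with the sham range. The log2 fold change was -0.58 ± 0.18 (SE), with an edgeR adjusted p of 0.0326. The call was lost without any 1 of the sham libraries, without TAC replicate 2 or 3, with the length trend removed and in the thinned libraries. Its exons share 395 bases with Mtf2 on the opposite strand, which had a log2 fold change of -0.23 ± 0.25 and at most 21.03 CPM. Tmed10, the delta member that partners all the others, was at 70.5 ± 0.40 RPKM in sham and 74.4 ± 2.77 in TAC and was not called (0.08 ± 0.13). Tmed1 (0.64 ± 0.29), Tmed4 (-0.10 ± 0.17) and Tmed8 (-0.35 ± 0.18) were not called either, and Tmed6 had at most 2 counts in any library and was not tested.

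The 3 KDEL receptors return ER chaperones that carry the KDEL tail from the Golgi. All 3 were called higher, against 8.28% of all genes. Kdelr1 (chromosome 7, 45872840 to 45883726) was at 56.1, 67.3 and 50.1 CPM in sham and at 87.4, 86.6 and 84.5 CPM in TAC, a fitted log2 change of 0.58 ± 0.15 (SE; edgeR adjusted p of 0.0127). Kdelr2 (chromosome 5, 143403820 to 143421904) was at 185.8, 229.0 and 239.1 CPM in sham and at 275.2, 293.4 and 353.6 CPM in TAC, with 0.50 ± 0.15 and an adjusted p of 0.0254. Kdelr3 (chromosome 15, 79516408 to 79527739) was at 59.6, 46.1 and 42.2 CPM in sham and at 76.4, 69.2 and 87.2 CPM in TAC, with 0.65 ± 0.17 and an adjusted p of 0.0114. In each of them every TAC library exceeded every sham library. Kdelr2 was the highest per length, at 119.6 ± 17.6 RPKM in sham against 38.2 ± 6.28 for Kdelr1 and 36.5 ± 6.06 for Kdelr3 (SD, n = 3), and the last 2 overlapped within their spread. As a group their RPKM summed to 194.3 ± 14.6 in sham and 281.9 ± 29.6 in TAC.

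COPI vesicles form the return route. Of 9 genes for the COPI coat and the Arf GTPase-activating proteins, 2 were called higher and none lower, all 9 log2 fold changes were above 0 and the median was 0.407. The 22.2% called stood against 18.7% of all genes called in either direction and 8.28% called higher. Copz2, a zeta subunit (chromosome 11, 96849876 to 96861203), was at 52.1, 63.2 and 52.1 CPM in sham and at 74.2, 85.0 and 95.3 CPM in TAC. Its log2 fold change was 0.61 ± 0.15 (SE), with an edgeR adjusted p of 0.0116. Copb2, the beta-prime subunit (chromosome 9, 98563731 to 98588375), was at 184.3, 175.1 and 178.6 CPM in sham and at 258.3, 241.9 and 212.9 CPM in TAC (0.41 ± 0.13, adjusted p of 0.0398). Neither overlapped between the groups. Copa, the alpha subunit and the highest of the coat per length, was at 81.6 ± 2.47 RPKM in sham and 90.6 ± 2.56 in TAC (SD, n = 3) and was not called (0.16 ± 0.13, adjusted p of 0.415). In single libraries it was at 351.0, 357.4 and 349.2 CPM in sham and at 415.1, 385.1 and 379.2 CPM in TAC.

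The subunits of the COPI coat also differed in level. In sham, Copz2 stood at 60.4 ± 8.01 and Copb2 at 59.3 ± 0.284 RPKM, above Copb1 at 41.4 ± 0.483, Copg at 32.0 ± 2.08, Copz1 at 28.6 ± 9.36 and Cope at 27.9 ± 3.30 RPKM. Copz2 and Copb2 overlapped within their spread, as did the last 3. Arfgap1 and Arfgap3, which switch Arf1 off on COPI vesicles, were at 8.87 ± 1.07 and 10.7 ± 0.782 RPKM in sham. Arfgap1 had a fitted log2 change of 0.56 ± 0.21 (edgeR adjusted p of 0.0717), Cope of 0.50 ± 0.19 (0.0744), Copz1 of 0.42 ± 0.20 (0.152) and Copg of 0.30 ± 0.13 (0.136). Copz1 in sham ranged from 29.8 CPM in replicate 3 to 58.5 CPM in replicate 2.

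**Figure D4:**
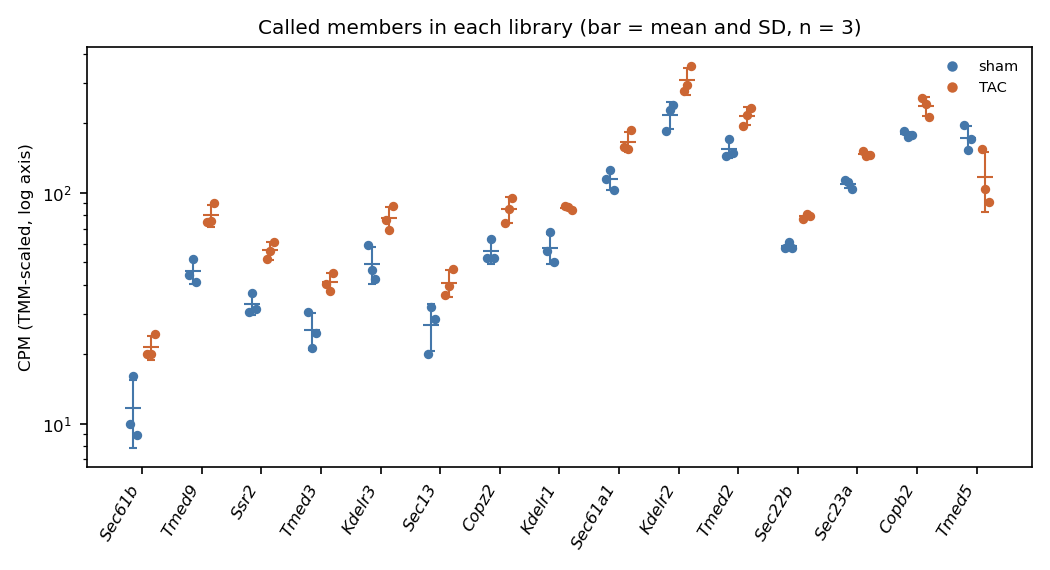
CPM (scaled by TMM, log axis) of the 15 called members in each library, with mean and SD of the 3 sham (blue) and 3 TAC (orange) libraries, ordered by log2 fold change. The 14 genes called higher show no overlap between the groups, while the highest TAC library of Tmed5 (154.6 CPM) lies above its lowest sham library (153.8 CPM).

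Pairs of genes of 1 family or 1 complex were compared within libraries, since a ratio of 2 genes in 1 library does not depend on scaling between libraries. Copb1 and Copb2 encode different subunits of the COPI coat and are not paralogs. The log2 ratio of RPKM, with 0.5 added to each value, was compared between the groups in 12 pairs with a two-sided exact permutation test over the 6 libraries, for which 3 against 3 cannot go below p = 0.1. In 5 pairs the groups did not overlap, each with the smallest possible exact p of 0.1 and a Benjamini-Hochberg adjusted value of 0.24, so none passed. The log2 ratio of Sec24d to Sec24a was 0.634 ± 0.025 in sham and 0.993 ± 0.109 in TAC (SD, n = 3). That of Sec24d to Sec24c was 1.107 ± 0.118 and 1.469 ± 0.309 (the difference of 0.362 was 0.184 without TAC replicate 1), and that of Copb2 to Copb1 was 0.513 ± 0.019 and 0.746 ± 0.126. These 3 ratios were higher in 3 of 3 TAC libraries than in any sham library. Sec23a to Sec23b went from 1.595 ± 0.261 to 1.886 ± 0.101, and the difference of 0.291 was 0.141 without sham replicate 1. Sec11c to Sec11a went from -2.297 ± 0.540 to -1.923 ± 0.026, and the difference of 0.374 was 0.062 without sham replicate 1. The ratios among the KDEL receptors overlapped between the groups, with differences of -0.085 for Kdelr2 to Kdelr1 and 0.077 for Kdelr3 to Kdelr1, as did Copz2 to Copz1 with 0.133, and the sign of each of these 3 differences changed when 1 library was left out.

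**Figure D5:**
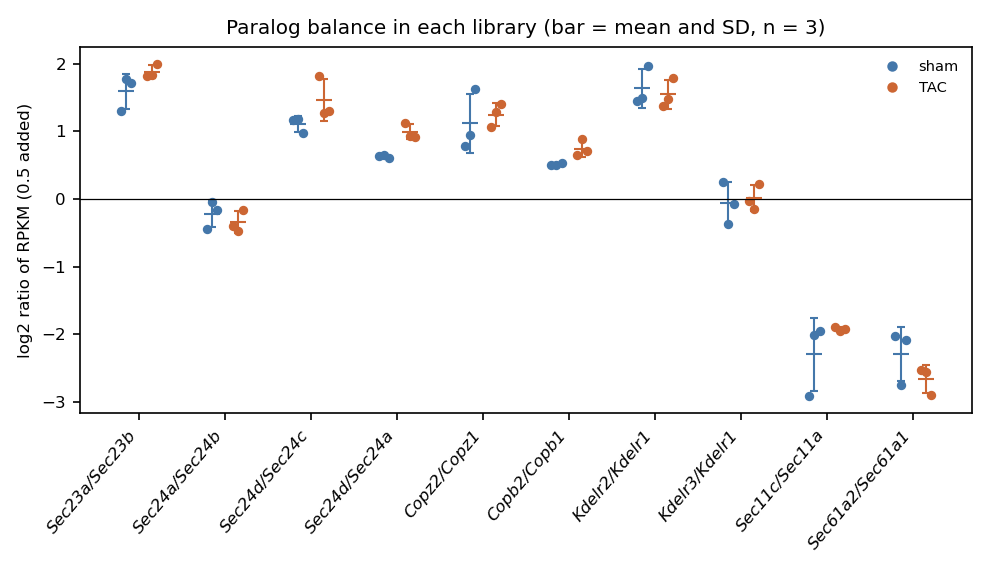
Log2 ratio of RPKM within each library for 10 of the 12 gene pairs compared, with mean and SD of the 3 sham (blue) and 3 TAC (orange) libraries. Sec24d to Sec24a and Copb2 to Copb1 lie tightly together in sham, at 0.634 and 0.513, and every TAC library is above them. Copb2 and Copb1 encode different coat subunits and are not paralogs.

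Promoters of the members were searched for short motifs known from ER stress and secretory gene control. RefSeq windows (GRCm38.p6) of 250 bases before to 50 after a transcription start were at hand for 40 of the 45 members. The core of the unfolded protein response element, TGACGTGG on either strand, which factors such as XBP1 and members of the CREB3 family can bind, stood in 5 of these 40 members (12.5%). Some members had more than 1 window. Counted per window, 11.4% of the members' 44 windows held it, against 0.676% of all 32851 windows and 0.9% of those of tested genes. The 5 genes were Copb1, Copb2, Kdelr3, Sec23a and Sec24d, and 3 of them (Copb2, Kdelr3 and Sec23a) were among those called higher, while Copb1 and Sec24d had log2 fold changes of 0.18 ± 0.14 and 0.27 ± 0.14 (SE). Of all tested members, 32.6% were called higher. Among the 88 tested genes with the core in a window, 10.2% were called higher, against 8.28% of all tested genes. The shorter CCACG, which every such core contains on one strand, stood in 68.2% of the members' windows. That was 32.8% in all windows and 46.6% in those of tested genes. TGACG, also contained in the core, stood in 34.1% of the members' windows, against 20.8% of all windows and 31.3% of those of tested genes. The ER stress response element, CCAAT followed after 9 bases by CCACG, stood in none of the 40 and in 0.119% of all windows. A match is a description of letters and not evidence of binding. The 5 windows with the core are printed 5′ to 3′ on the strand of the gene, followed by those of Tmed9 and Copz2, which had among the 4 smallest adjusted p. Capitals mark the core and any CCACG on either strand.
Copb1 (chr7:114254631-114254930, minus strand): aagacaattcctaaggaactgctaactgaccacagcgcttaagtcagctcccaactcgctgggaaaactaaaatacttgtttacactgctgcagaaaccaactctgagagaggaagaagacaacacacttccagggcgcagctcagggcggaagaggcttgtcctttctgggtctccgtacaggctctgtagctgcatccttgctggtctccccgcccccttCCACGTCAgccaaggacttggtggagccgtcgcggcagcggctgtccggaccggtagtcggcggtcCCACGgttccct
Copb2 (chr9:98563481-98563780, plus strand): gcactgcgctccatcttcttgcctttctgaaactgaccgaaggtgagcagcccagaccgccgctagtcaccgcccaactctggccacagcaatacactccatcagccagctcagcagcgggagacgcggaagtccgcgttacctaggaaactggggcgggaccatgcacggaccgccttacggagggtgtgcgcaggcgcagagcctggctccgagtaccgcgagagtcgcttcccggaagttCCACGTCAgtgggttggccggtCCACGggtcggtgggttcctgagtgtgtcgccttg
Kdelr3 (chr15:79516158-79516457, plus strand): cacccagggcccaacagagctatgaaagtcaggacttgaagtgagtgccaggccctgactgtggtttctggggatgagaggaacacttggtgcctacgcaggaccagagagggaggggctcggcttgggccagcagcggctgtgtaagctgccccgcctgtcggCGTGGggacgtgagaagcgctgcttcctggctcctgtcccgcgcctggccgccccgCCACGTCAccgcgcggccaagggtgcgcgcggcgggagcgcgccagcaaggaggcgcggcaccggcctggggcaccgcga
Sec23a (chr12:59011968-59012267, minus strand): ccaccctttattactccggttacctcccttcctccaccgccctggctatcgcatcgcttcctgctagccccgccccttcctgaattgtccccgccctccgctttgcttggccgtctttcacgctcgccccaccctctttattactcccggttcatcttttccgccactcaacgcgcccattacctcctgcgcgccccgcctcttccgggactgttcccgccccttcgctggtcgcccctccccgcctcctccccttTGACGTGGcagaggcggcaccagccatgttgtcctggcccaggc
Sec24d (chr3:123267246-123267545, plus strand): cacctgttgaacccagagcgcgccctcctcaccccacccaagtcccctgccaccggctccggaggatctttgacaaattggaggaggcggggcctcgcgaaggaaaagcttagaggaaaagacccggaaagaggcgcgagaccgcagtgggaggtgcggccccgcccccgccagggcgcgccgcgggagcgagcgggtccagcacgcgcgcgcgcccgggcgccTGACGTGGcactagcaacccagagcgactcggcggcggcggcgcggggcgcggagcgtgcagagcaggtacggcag
Tmed9 (chr13:55592885-55593184, plus strand): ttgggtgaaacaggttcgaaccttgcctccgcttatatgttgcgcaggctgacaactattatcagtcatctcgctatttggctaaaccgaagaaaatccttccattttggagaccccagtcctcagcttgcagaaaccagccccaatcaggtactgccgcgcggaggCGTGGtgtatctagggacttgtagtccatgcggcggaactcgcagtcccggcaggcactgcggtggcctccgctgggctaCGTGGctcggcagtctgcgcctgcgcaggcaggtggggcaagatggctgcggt
Copz2 (chr11:96849626-96849925, plus strand): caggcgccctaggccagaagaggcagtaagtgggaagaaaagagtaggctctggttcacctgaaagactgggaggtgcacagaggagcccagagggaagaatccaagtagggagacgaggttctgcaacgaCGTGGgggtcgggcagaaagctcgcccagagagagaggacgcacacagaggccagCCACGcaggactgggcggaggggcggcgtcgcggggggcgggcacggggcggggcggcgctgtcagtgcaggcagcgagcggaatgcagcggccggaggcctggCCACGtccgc

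In all 5 genes the core began within 30 bases of the start used for the window. For Sec24d that window lies inside the gene's listed span (chromosome 3, 123264801 to 123365641), so its start is not the outermost one. Counted along the gene's strand, its first base stood 28 bases before the start in Copb1, 7 before in Copb2, 30 before in Kdelr3 and 26 before in Sec24d, and at the seventh transcribed base in Sec23a. Factors known to act on such elements were read from a list of 15 regulators of secretory gene expression, of which 12 were tested. The list also holds sensors and proteases. Of the 12, 1 was called higher and 1 lower, with a median log2 fold change of 0.064. The 16.7% called stood against 18.7% of all genes, and the 8.33% called higher against 8.28%. Creb3l2, a membrane-bound CREB3 family factor known to drive Sec23a, was called higher: it was at 282.9, 325.8 and 311.0 CPM in sham and at 580.4, 507.8 and 457.1 CPM in TAC (log2 change of 0.75 ± 0.14, SE; edgeR adjusted p of 0.00122). Atf6, an ER stress sensor, was called lower, at 160.2, 188.6 and 164.7 CPM in sham and 144.8, 113.6 and 98.0 CPM in TAC (-0.53 ± 0.15, adjusted p of 0.0251), and did not pass with the length trend removed, on log2 RPKM, in thinned libraries or without sham replicate 2, TAC replicate 2 or TAC replicate 3. Xbp1 averaged 195.8 ± 9.12 CPM over sham and 193.2 ± 4.90 over TAC libraries (SD, n = 3) and was not called (-0.02 ± 0.13). Creb3 (0.66 ± 0.23, adjusted p of 0.0608) and Creb3l1 (0.31 ± 0.21, 0.316) were not called either. Protein activity of these factors was not measured.

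The partners of the members along the route were read from further lists. Of 12 genes of the oligosaccharyltransferase, which adds N-glycans beside the Sec61 channel, 6 were called higher and none lower (50% called, against 18.7% of all genes), with a median log2 fold change of 0.379. The count was 3 without sham replicate 1, sham replicate 3 or TAC replicate 2, and without sham replicate 3 another 1 was called lower. Rpn1 went from 72.6 ± 5.02 to 119.3 ± 13.1 CPM (SD, n = 3; 0.72 ± 0.14 on the log2 scale, edgeR adjusted p of 0.00234), Ostc (listed as 2310008M10Rik) from 46.9 ± 0.275 to 76.4 ± 3.18 CPM and Ost4 (listed as 2310016E02Rik) from 94.4 ± 3.65 to 138.7 ± 16.9 CPM. Ost4, whose row has 511 bases, had a log2 fold change of 0.55, which was 0.25 and not called with the length trend removed. Of 21 regulators and cargo adaptors of COPII, 6 were called higher and none lower. That is 28.6%, against 8.28% of all genes called higher and 18.7% called in either direction. The count was 2 without sham replicate 2 and 1 without sham replicate 3. The 6 included Mcfd2 (0.74 ± 0.18) and Lman1 (0.48 ± 0.13), which together form a cargo receptor for glycoproteins, and Surf4 (0.48 ± 0.13), an ER export receptor. Lman1 and Surf4 were not called without sham replicate 2 or sham replicate 3. Of 18 partners in signal recognition, translocation and signal peptide cleavage, 3 were called higher and none lower. That is 16.7%, against 8.28% of all genes called higher and 18.7% called in either direction. They were Srp9 (0.55 ± 0.18), Srp19 (0.68 ± 0.22) and Spcs1 (0.59 ± 0.19). Their edgeR adjusted p lay between 0.0412 and 0.0431, and none of the 3 passed in DESeq2 or limma voom. None of the 18 was called without sham replicate 1, sham replicate 2 or TAC replicate 2.

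Of 43 tethers, SNAREs and Rabs of the forward route 3 were called higher, Ykt6 (0.96 ± 0.25), Yipf5 (0.64 ± 0.17) and Gosr2 (0.53 ± 0.15), and 1, Vti1a, lower, which is 9.3% of the list against 18.7% of all genes. Without sham replicate 3 only 1 was called higher, and none was called lower without sham replicate 2, sham replicate 3 or TAC replicate 3. Ykt6 was not called without sham replicate 1, Yipf5 without sham replicate 2 or 3 and Gosr2 without sham replicate 3 or TAC replicate 2. None of the 14 tested COPI regulators and retrograde tethers was called by edgeR, although 3 had an unadjusted p under 0.05. DESeq2 and limma voom also called 0, while upper quartile scaling and the removal of the length trend each called 2 higher, no low-count filter 3 and leaving out sham replicate 1 called 1. The highest of them per length was Arf4, a GTPase that recruits COPI, which averaged 923.8 ± 147.5 CPM over sham and 962.1 ± 192.5 over TAC libraries (SD, n = 3). Of 36 genes of ER folding, 9 were called higher and none lower, with a median log2 fold change of 0.304. That is 25%, against 8.28% of all genes called higher and 18.7% called in either direction. Without sham replicate 3 the count was 5, and without TAC replicate 1 it was 9 higher and 2 lower. The 3 with the smallest adjusted p were Fkbp10, Ppib and Fkbp14. Fkbp10, a collagen chaperone, went from 66.5 ± 9.65 to 154.5 ± 31.1 CPM (1.22 ± 0.17, adjusted p of 0.000103), and Ppib and Fkbp14, also prolyl isomerases, had 0.83 ± 0.15 and 0.70 ± 0.14. The 2 genes of highest CPM in the list, Hsp90b1 (0.305 ± 0.144) and Hspa5 (-0.08 ± 0.197), were not called. The differences between these lists and the members were not tested.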

How the data were processed

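RNA of sorted Thy1+HE- heart cells was sequenced in 3 sham and 3 TAC libraries. The deposited reports, which NextGENe 2.3.3 wrote per the file headers, hold read counts per gene row. The submitters' processing notes also list mm10 and Partek 6.6, with no role. The same deposited reports give RPKM, which on the values is the count over row length and the reads on gene rows. The counting of reads with several matches was not stated. Rows of 1 symbol were summed. Counts were filtered with filterByExpr, scaled by TMM and tested with edgeR 4.0.16 (quasi-likelihood, two-sided, Benjamini-Hochberg over 12612 genes) in R 4.3.3. Standard errors were derived from the F statistic. The fit was tested on simulated data. Alternatives used DESeq2 1.42.0, limma 3.58.1, other scalings and filters, a length correction by loess, a replicate block and each library left out, and thinning to the smallest library was added after seeing the data.

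Libraries of 1 group differed beyond counting noise (chi-square per degree of freedom from 3.38 to 14.1). Row symbols were matched to RefSeq (GRCm38.p6): 14654 were current and 4901 matched by 1 synonym. The members, lists and tests were chosen with earlier results of these data known. Library values were named for every called member and, in each role, for the member highest in RPKM and that of largest absolute change, and up to 3 called genes per further list. Creb3, Creb3l1, Xbp1, Vti1a, Hsp90b1, Hspa5 and the other members were added beside that rule after their values were seen. Plots were drawn with matplotlib 3.10.9.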

Additional observations from a re-analysis of the deposited data

How the results depend on the processing

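No result reversed. The count of members called higher (14) lay between 3 and 13 when 1 library was left out, and the count called lower (1) between 0 and 1. The latter was also 0 with the length trend removed and with libraries thinned to the smallest. The members' median log2 fold change (0.416) lay between 0.29 and 0.418 without 1 library. Over all genes, the number called (2353) lay between 1454 and 2261 without 1 library, and the number called higher (1044) between 571 and 997; the latter was 1579 with no low-count filter and 1240 with upper quartile scaling, which called 1139 lower. The cause of these shifts was not tested, except that fewer libraries leave fewer degrees of freedom. Same-numbered libraries did not deviate together (correlations of 0.0824, 0.0251 and -0.0862). These 3 correlations of values centred within each group cannot show whether the numbers mark pairs or batches. With the replicate block, 12 members were higher and 1 lower, and 2346 genes were called. The low counts of Sec61b, Sec22a, Sec11c and Tmed1 limit their precision.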

Other observations

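The following genes of the same machinery were not among the members, and none of them was called. All but Arcn1 are listed under other symbols in the deposited reports. Sec16a (listed as AU024582), which organises ER exit sites, stood at 0.09 ± 0.13 on the log2 scale (SE), and its relative Sec16b (listed as Lztr2) at 0.23 ± 0.20. Sec62 (listed as Tloc1), a partner of Sec63, had 0.12 ± 0.13 and Arfgap2 (listed as Zfp289) 0.00 ± 0.26. Arcn1, the delta subunit of COPI, is listed under that symbol, which the rule does not cover. It was at 218.8, 255.9 and 199.9 CPM in sham and at 293.0, 285.5 and 293.5 CPM in TAC, without overlap (0.37 ± 0.13, edgeR adjusted p of 0.0642).

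Over all genes, the core TGACGTGG stood in the promoter windows of 88 tested genes. Of these 9 were called higher (10.2%, against 8.28% of all tested genes) and 7 lower (7.95%, against 10.4%), and their median log2 fold change was -0.014.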
